A study of Arabidopsis thaliana with 123 samples.

Results

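SNRK2.2 (AT3G50500), SNRK2.3 (AT5G66880) and SNRK2.6 (AT4G33950, also called OST1) encode the subclass III SnRK2 protein kinases of Arabidopsis thaliana. They are 3 of the 37336 genes in the table, were taken by their locus identifiers across all genotypes and stages, and all 3 passed the filter on low counts in both experimental rounds. These kinases pass on the signal of abscisic acid (ABA), the hormone that drives seed maturation, dormancy and drought responses. Without ABA, type 2C protein phosphatases (PP2Cs) of clade A hold the kinases inactive. When PYR/PYL receptors bind ABA they block the phosphatases, and Raf-like kinases can then phosphorylate and activate the SnRK2s, which in turn phosphorylate transcription factors such as ABI5 and, in guard cells, the channel SLAC1. In seeds and seedlings SNRK2.2 and SNRK2.3 are known as the main pair, while SNRK2.6 is best known for closing stomata, and the kinases overlap in function.

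Messenger RNA was measured in 123 sequencing libraries of seeds dissected from siliques of Col-0 background plants at set days after pollination (DAP). The lines abi3-6 (14 libraries), abi3-12 (14), dog1-4 (12), abi3-12 dog1-4 (15) and abi3-12 dog1-4 cyp707a2 (15) were sampled over several stages, and abi3-12 dog1-4 aba2-1, abi3-12 aba2-1, dog1-4 aba2-1, aba2-1 and L2-1 in dry seed with 3 libraries each. All were set against wild type, Col-0 without these alleles (38). ABI3 is a transcription factor of seed maturation, DOG1 a dormancy regulator, ABA2 makes ABA and CYP707A2 breaks it down. The labels call every line a knock-out except L2-1, a transgenic line with DOG1 from the Cvi accession. The labels name 2 experimental rounds, batch A (wild type at 12, 14, 16, 18, 20, 22 and 24 DAP and dry, and abi3-6 at 16, 18, 20 and 22 DAP) and batch B (wild type and lines at 18, 20, 22 and 24 DAP and dry). Of the lines with a course in batch B, dog1-4 began at 20 DAP and abi3-6 was sampled at 24 DAP and dry. Of the 43 combinations of genotype, stage and batch, 37 held 3 libraries and 6 held 2.

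The gene models place SNRK2.2 on the minus strand at chr3:18741444-18744174, SNRK2.3 on the plus strand at chr5:26710302-26712971 and SNRK2.6 on the plus strand at chr4:16271745-16274825, in the TAIR10.1 assembly as annotated by RefSeq. Their coding sequences have 1110, 1086 and 1089 bases, for proteins of 369, 361 and 362 amino acids. The SNRK2.2 and SNRK2.3 proteins were 90.0% identical over 359 aligned positions, SNRK2.2 and SNRK2.6 78.8% and SNRK2.3 and SNRK2.6 80.3%. Their coding sequences were 83.7%, 72.7% and 74.1% identical. The longest stretch that SNRK2.2 and SNRK2.3 share without a mismatch has 45 bases and is shown because a read inside it cannot be told apart between them. It lies inside the coding sequences and is the same in both genes:
SNRK2.2 and SNRK2.3: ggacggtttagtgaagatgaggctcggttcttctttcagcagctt
No window of 50 bases was shared without a mismatch by any pair, and the longest runs shared with SNRK2.6 had 20 and 17 bases. Stretches that differ by a few bases were not searched for. The read length is not given in the sources used here. SNRK2.3 overlaps 2 genes of the opposite strand, AT5G09785, a long noncoding RNA with 1 count over all libraries, and AT5G66890 with 0 counts.

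The members moved differently along the course, so the 250 bases upstream of each annotated start are shown with the motifs that were searched for in them. These were the RY repeat CATGCA, the element bound by ABI3, the core of the ABA response element ACGTG and the G-box CACGTG, each on both strands. A G-box holds the ABRE core on both strands. Capitals mark a G-box:
SNRK2.2, chr3:18744175-18744424, minus strand: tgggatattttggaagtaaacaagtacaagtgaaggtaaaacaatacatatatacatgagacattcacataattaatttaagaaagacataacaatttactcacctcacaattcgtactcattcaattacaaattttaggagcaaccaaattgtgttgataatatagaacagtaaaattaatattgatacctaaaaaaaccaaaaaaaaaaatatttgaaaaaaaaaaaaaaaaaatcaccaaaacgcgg
SNRK2.3, chr5:26710052-26710301, plus strand: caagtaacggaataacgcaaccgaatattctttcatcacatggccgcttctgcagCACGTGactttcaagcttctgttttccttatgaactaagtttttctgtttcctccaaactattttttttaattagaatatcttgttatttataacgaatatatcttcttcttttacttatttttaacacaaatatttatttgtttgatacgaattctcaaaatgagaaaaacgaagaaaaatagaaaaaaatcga
SNRK2.6, chr4:16271495-16271744, plus strand: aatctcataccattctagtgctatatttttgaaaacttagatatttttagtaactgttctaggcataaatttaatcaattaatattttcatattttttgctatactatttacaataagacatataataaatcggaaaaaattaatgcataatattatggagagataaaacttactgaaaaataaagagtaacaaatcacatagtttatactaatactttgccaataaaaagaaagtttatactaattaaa
SNRK2.3 held 1 G-box, starting 195 bases upstream of its annotated start. None of the 3 motifs was found in the windows of SNRK2.2 and SNRK2.6, and no RY repeat in that of SNRK2.3. Of 27443 upstream windows of this length, 6.49% held a G-box, 22.9% an ABRE core and 8.43% an RY repeat. A match is a run of letters, not a measured binding site.

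Libraries held 2577281 to 20277489 counts (median 11678153). Of the mutated genes, DOG1 had 1.12 ± 0.292 CPM in dry dog1-4 seed and 33.0 ± 8.15 CPM in dry wild type, and CYP707A2 had 9.98 ± 0.611 CPM in dry abi3-12 dog1-4 cyp707a2 and 65.4 ± 9.28 CPM in dry wild type (SD, n = 3 each). Levels in CPM, the usual counts-per-million unit, were scaled with TMM (trimmed mean of M values) factors. These factors were computed separately in each batch, so CPM of batch A and batch B are not on the same scale. In dry abi3-12 dog1-4, which carries no cyp707a2 allele, CYP707A2 was already at 5.48 ± 0.286 CPM (n = 3). ABI3 had 143 ± 11.5 CPM in abi3-6 and 118 ± 4.39 CPM in abi3-12, against 200.2 ± 7.51 CPM in wild type, all dry (n = 3 each), so a transcript was left in both. The difference in abi3-6 turned round with library totals alone (0.08, main value -0.48, log2). ABA2 had 1.74 ± 0.215 CPM in dry aba2-1 and 1.92 ± 0.204 CPM in dry wild type (n = 3 each), and in dry L2-1 DOG1 had 40.1 ± 2.6 CPM against 33.0 ± 8.15 CPM (n = 3 each). Neither passed the test. Summed seed markers (5 genes) were at 2073 to 4577 CPM in dry abi3-6 and 34578 to 41142 CPM in dry wild type. Wild type differed between batches far more at 18, 20, 22 and 24 DAP (33.1%, 51.3%, 20.0% and 14.4% of genes called) than in dry seed (0.0227%). Lines were therefore compared with wild type within a batch.

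In wild type the 3 kinases parted during maturation: SNRK2.2 and SNRK2.3 transcripts rose, most of it between 18 and 22 DAP, and SNRK2.6 fell, in batch A partly before 18 DAP. SNRK2.2 was at 52.3, 49.8 and 54.5 CPM in the batch A libraries of 12 DAP, 45.2, 49.7 and 47.0 at 14, 47.0, 51.7 and 54.1 at 16 and 48.9, 50.3 and 48.5 at 18 DAP. It was at 64.5, 68.2 and 69.3 CPM at 20, 96.5, 101 and 101 at 22 and 90.8 and 102 at 24 DAP, and 100.4, 104 and 96.0 in dry seed. Its libraries of 12 to 18 DAP overlapped, and all later ones lay above them. SNRK2.3 was at 10.00, 12.6 and 13.1 CPM at 12, 5.5, 8.36 and 8.81 at 14, 8.93, 11.2 and 12.0 at 16 and 20.5, 18.0 and 19.1 at 18 DAP. It was at 66.7, 73.5 and 72.3 CPM at 20, 116, 127 and 119 at 22 and 122 and 117 at 24 DAP, and 125, 125 and 128 in dry seed. SNRK2.3 was the lower of the pair up to 18 DAP in every library and the higher from 20 DAP on in CPM. SNRK2.6 was at 9.33, 13.4 and 15.0 CPM at 12, 8.73, 13.2 and 20.2 at 14, 7.49, 8.16 and 10.3 at 16 and 4.85, 3.62 and 4.68 at 18 DAP. It was at 0.798, 0.532 and 1.42 CPM at 20, 1.99, 1.21 and 1.17 at 22 and 0.248 and 1.33 at 24 DAP, and 2.14, 1.63 and 1.22 in dry seed. The lowest of these came from 3 counts, which is the floor used here. From 20 DAP on, every SNRK2.6 library lay below every library of 12 to 18 DAP. Some markers of other tissues were lower too at these stages. The summed guard-cell markers (KAT1, SLAC1, MYB60 and FAMA) were at 0.438 to 1.25 CPM at 20 DAP, with KAT1 and SLAC1 at 0, against 21.1 to 36.1 CPM at 18 DAP, with the same genes at 0, and the 3 seed-coat markers BAN, TT10 and MUM4 at 16.1 to 29.4 CPM against 309 to 419.7 CPM. In batch B the guard-cell markers were at 1.38 to 1.83 CPM at 22 DAP, with KAT1 and SLAC1 at 0, against 158 to 183 CPM at 18 DAP, with KAT1 at 0, and the seed-coat markers at 52.0 to 85.3 CPM against 914 to 989 CPM. The summed leaf and silique markers were lower too, at 123 to 188 CPM at 20 DAP of batch A against 352 to 385 CPM at 18 DAP. In batch B they were at 268 to 294 CPM at 22 DAP against 569 to 683 CPM. The endosperm marker EPR1 was at 27987 to 34020 CPM at 20 DAP of batch A, overlapping with 32783 to 50702 CPM at 18 DAP. In batch B EPR1 was higher at 22 DAP, at 22985 to 25453 CPM against 9149 to 13829 CPM. The part of these markers in the SNRK2.6 course was not tested.

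**Figure D1:**
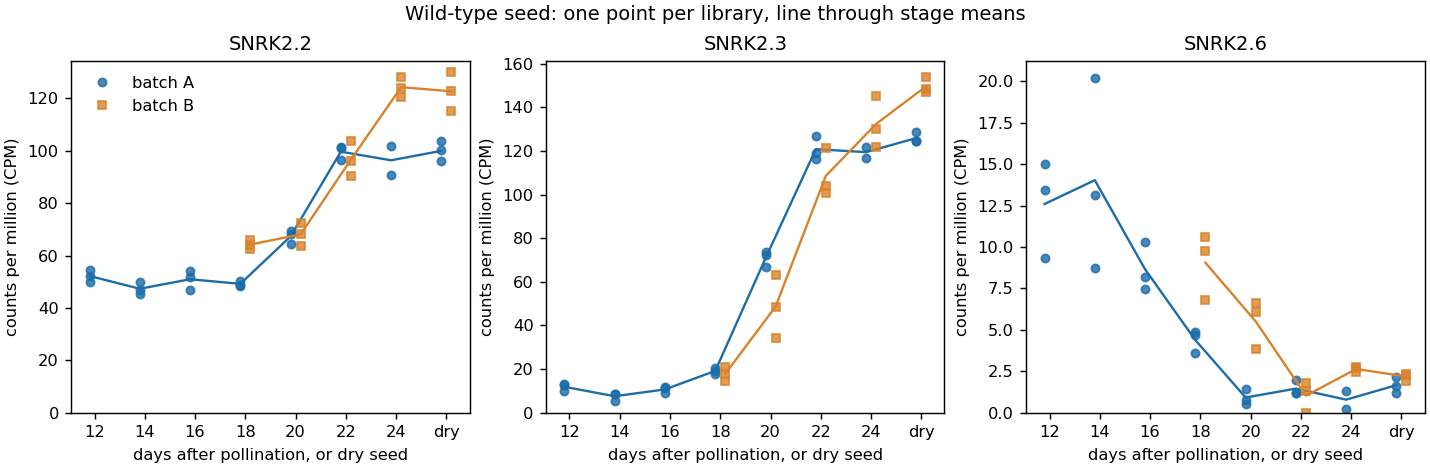
Expression in wild-type libraries (CPM) against stage, with 1 panel per kinase, 1 point per library and lines through stage means, circles for batch A and squares for batch B. CPM are scaled within each batch, so heights are not comparable between batches. SNRK2.2 and SNRK2.3 climb after 18 DAP, and SNRK2.6 lies under 3 CPM in every library from 22 DAP on.

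Neighbouring stages were compared within each batch with edgeR's quasi-likelihood test, and a gene is called at a Benjamini-Hochberg adjusted p under 0.05 over all genes tested. Log2 fold changes are later over earlier stage. In batch A, SNRK2.2 rose at 20 against 18 DAP (log2 fold change 0.45, SE 0.07, adjusted p = 2.21e-06) and at 22 against 20 DAP (log2 fold change 0.57, SE 0.06, adjusted p = 1.01e-07). SNRK2.3 fell by 0.65 at 14 against 12 DAP (SE 0.14, adjusted p = 0.000573) and then rose at 4 steps in a row, by 0.50, 0.84, 1.88 and 0.77 (SE 0.14, 0.13, 0.11 and 0.10). The largest of these rises, at 20 against 18 DAP, had an adjusted p = 6.99e-13. SNRK2.6 fell by 0.99 at 18 against 16 DAP (SE 0.40, adjusted p = 0.0348) and by 2.21 at 20 against 18 DAP (SE 0.67, adjusted p = 0.00300). No member passed the test at 24 against 22 DAP or at dry against 24 DAP. Over all genes, 35.6% were called at 14 against 12 DAP, 39.5% at 16 against 14, 51.5% at 18 against 16, 54.3% at 20 against 18 and 41.7% at 22 against 20 DAP, but 0.0294% and 0.0245% at the last steps. The first SNRK2.6 call was lost without 16 DAP replicate 3 or 18 DAP replicates 1, 2 or 3 (-1.08 to -0.83, adjusted p 0.0600 to 0.130), and the SNRK2.3 rise at 16 DAP without 14 DAP replicate 1 (0.32, adjusted p = 0.0581). In bulk seed RNA, fewer cells of a type and less RNA per cell cannot be told apart.

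Batch B gave the same directions at other times. SNRK2.3 was at 17.9, 21.1 and 14.6 CPM in its 18 DAP libraries, 34.4, 48.5 and 63.2 at 20, 104, 101 and 121 at 22, 145, 122 and 130.1 at 24 DAP and 148, 154 and 147 in dry seed. SNRK2.6 was at 6.81, 9.74 and 10.6 CPM at 18, 6.61, 6.09 and 3.84 at 20, 1.3, 1.79 and 0 at 22, 2.71, 2.45 and 2.76 at 24 DAP and 1.92, 2.29 and 2.33 in dry seed. Its drop to under 3 CPM was complete at 20 DAP in batch A and at 22 DAP in batch B. The value of 0 comes from the shallow library of 3109231 counts, where the floor of 3 counts is 0.965 CPM. At 20 against 18 DAP SNRK2.3 rose (log2 fold change 1.44, SE 0.17, adjusted p = 6.36e-11) and SNRK2.6 fell by 0.79 (SE 0.25, adjusted p = 0.00550), while SNRK2.2 had 0.08 (SE 0.07, adjusted p = 0.352). At 22 against 20 DAP SNRK2.2 rose by 0.50 and SNRK2.3 by 1.15 (SE 0.07 and 0.15), and SNRK2.6 fell by 2.08 (SE 0.36). At 24 against 22 DAP SNRK2.2 rose by 0.37 (SE 0.07) and SNRK2.6 by 1.02 (SE 0.36, adjusted p = 0.0194), and no member passed at dry against 24 DAP. Of all genes, 49.3%, 43.9%, 30.6% and 0.11% were called at these steps. The SNRK2.6 fall at 20 DAP was lost without 20 DAP replicate 3 (-0.57, adjusted p = 0.0729) and its rise at 24 DAP without 22 DAP replicates 1 or 3 (0.80 to 1.03, adjusted p 0.0667 to 0.0849) and in a fit to only the compared groups (1.07, adjusted p = 0.132).

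Dry seed against 18 DAP sums up the course. SNRK2.2 averaged 100.0 ± 3.80 CPM in dry seed and 49.2 ± 0.961 CPM at 18 DAP in batch A, and 123 ± 7.34 against 64.2 ± 1.78 CPM in batch B (SD, n = 3 each). It rose by 1.02 (SE 0.06) and 0.93 (SE 0.07) on the log2 scale. SNRK2.3 averaged 126 ± 2.21 CPM in dry seed against 19.2 ± 1.27 CPM at 18 DAP in batch A, and 149.7 ± 3.56 against 17.9 ± 3.29 CPM in batch B (n = 3 each), rises of 2.71 (SE 0.11) and 3.06 (SE 0.17). SNRK2.6 averaged 1.66 ± 0.462 against 4.38 ± 0.663 CPM in batch A and 2.18 ± 0.226 against 9.06 ± 2.00 CPM in batch B (n = 3 each), and it fell by 1.38 (SE 0.48, adjusted p = 0.0149) and 2.11 (SE 0.27, adjusted p = 1.30e-10). All 6 comparisons were called, beside 63.8% and 66.6% of all genes. The batch A call of SNRK2.6 was lost without 18 DAP replicate 1 or dry-seed replicate 3 (-1.28 to -1.16, adjusted p 0.0595 to 0.0615) and with library totals alone (-0.69, adjusted p = 0.202).

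Wild-type libraries of the 2 batches were also fitted together. At 20 DAP SNRK2.2 and SNRK2.3 were lower in batch B than in batch A (-0.24 and -0.80, SE 0.07 and 0.13) and SNRK2.6 was higher (2.27, SE 0.45). At 22 DAP SNRK2.2 and SNRK2.3 were lower (-0.27 and -0.38), and at 24 DAP SNRK2.6 was higher (1.41, adjusted p = 0.0429). Over all stages together SNRK2.3 was lower in batch B (-0.31, SE 0.06) and SNRK2.6 higher (0.87, SE 0.19). In dry seed and at 18 DAP no member passed the test. CPM scaled within each batch can differ from this fit. Dry-seed SNRK2.2 was at 123 CPM in batch B and 100.0 CPM in batch A, but the joint fit gave 0.06 (SE 0.07). Of all genes, 33.1% were called at 18 DAP, 51.3% at 20, 20.0% at 22, 14.4% at 24 DAP, 0.0227% in dry seed and 30.9% over all stages. With the replicate number as a block, the call of SNRK2.6 at 24 DAP was lost (1.44, adjusted p = 0.0546).

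Per exon length, SNRK2.2 was the main transcript of the 3 early and SNRK2.3 late, and SNRK2.3 took over at 20 DAP in batch A and at 22 DAP in batch B. The share of SNRK2.2 in the summed CPM per kilobase was 68.8% ± 4.01 at 12 DAP, 67.0% ± 2.08 at 18, 46.9% ± 0.476 at 20 DAP and 42.4% ± 1.29 in dry seed of batch A (SD, n = 3 each). The share of SNRK2.3 was 16.6% ± 1.48 at 12 DAP, 27.8% ± 1.39 at 18, 52.5% ± 0.641 at 20 DAP and 56.9% ± 1.39 in dry seed (n = 3 each). SNRK2.6 held 14.6% ± 2.59 at 12 DAP, 5.28% ± 0.743 at 18, 0.565% ± 0.270 at 20 DAP and 0.625% ± 0.173 in dry seed (n = 3 each). In batch B SNRK2.2 and SNRK2.3 held 55.0% ± 4.67 and 40.9% ± 6.22 at 20 DAP and 45.4% ± 0.835 and 54.2% ± 1.15 at 22 DAP (n = 3 each). Dry wild-type seed of batch B gave shares of 43.2% ± 1.07, 56.2% ± 1.12 and 0.679% ± 0.0578 for SNRK2.2, SNRK2.3 and SNRK2.6 (n = 3). The log2 ratio of SNRK2.3 to SNRK2.2 was 1.92 higher in dry seed than at 18 DAP, and that of SNRK2.6 to SNRK2.2 was lower (-2.70). Each had a two-sided exact permutation p = 0.00500 within batches, the smallest this design allows, and an adjusted p = 0.00818 over 18 ratio tests (n = 6 libraries each).

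**Figure D2:**
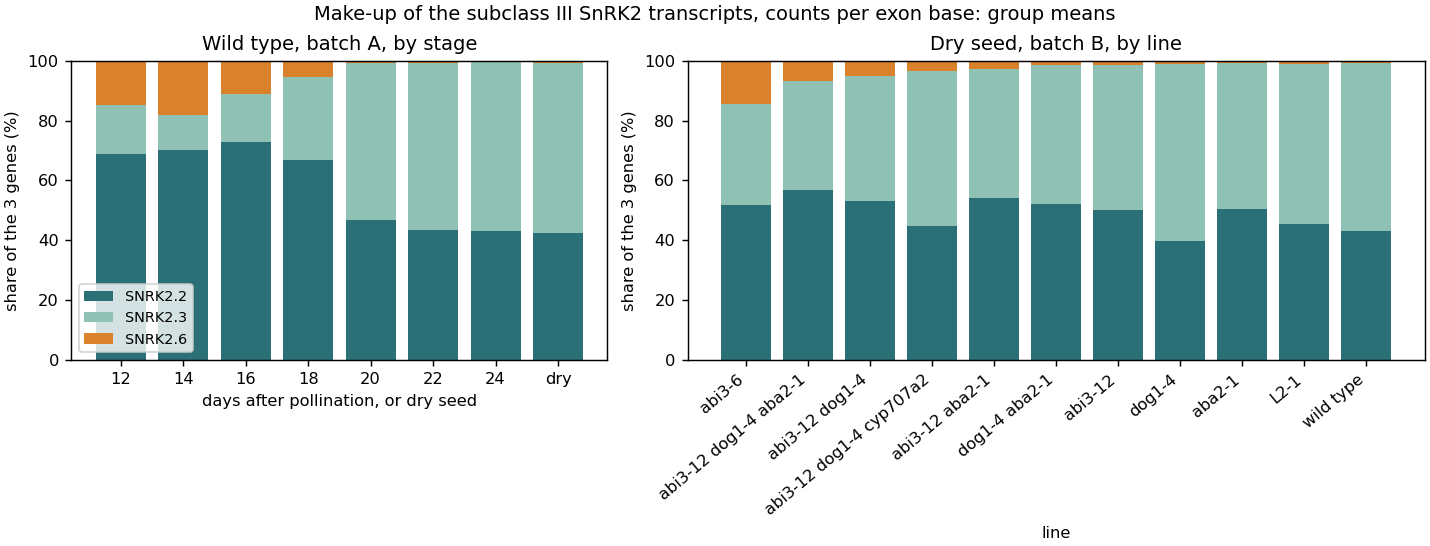
Share of each kinase in the summed expression per exon length of the 3 (percent), by group, as stacked bars of group means, by stage in wild type of batch A (left) and by line in dry seed of batch B (right). In wild type of batch A SNRK2.3 takes the largest share from 20 DAP on, and dry abi3-6 seed has the largest SNRK2.6 share of the lines, 14.3% against 0.679% in wild type.

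Between lines and wild type, SNRK2.6 and SNRK2.2 were called in 1 direction, whereas SNRK2.3 went both ways. Over the 30 comparisons of a line with wild type of its stage and batch, SNRK2.6 was higher in 22 and lower in 0 and SNRK2.2 higher in 23 and lower in 0. SNRK2.3 was higher in 12 and lower in 6, but higher in 20 and lower in 0 with library totals alone. Pooled over these comparisons 47.4% of gene tests were called, 25.1% higher and 22.3% lower. The comparisons share wild-type libraries, so their counts are not independent. How often the libraries of a line and wild type do not overlap was not counted over all genes. Statements on overlap below therefore only describe the libraries.

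Seeds of abi3-6, a strong loss of the maturation regulator ABI3, held far more SNRK2.6 than wild type at every stage sampled, up to the dry seed. SNRK2.6 was at 71.5 and 37.0 CPM in abi3-6 at 16 DAP against 7.49, 8.16 and 10.3 in wild type, and at 26.4 and 18.2 against 4.85, 3.62 and 4.68 CPM at 18 DAP. At 20 DAP it was at 17.4 and 19.8 CPM in abi3-6 against 0.798, 0.532 and 1.42 in wild type, and at 22 DAP at 49.0 and 49.3 against 1.99, 1.21 and 1.17 CPM. In batch B it was at 46.3, 57.5 and 49.9 CPM in abi3-6 at 24 DAP against 2.71, 2.45 and 2.76 in wild type, and at 48.8, 71.4 and 55.7 against 1.92, 2.29 and 2.33 CPM in dry seed. At no stage did the libraries of the genotypes overlap. The log2 fold changes were 2.63, 2.35, 4.29, 5.17, 4.29 and 4.74 at 16, 18, 20, 22 and 24 DAP and in dry seed (SE 0.29, 0.37, 0.62, 0.48, 0.22 and 0.23), and the largest adjusted p was 1.08e-06. Of all genes, 66.5%, 74.5%, 79.2%, 77.4%, 77.6% and 77.7% were called at these stages, so a call as such sets no gene apart here.

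The other 2 kinases changed less in abi3-6, and SNRK2.3 took a different course. SNRK2.2 was higher at all 6 stages, by 0.77, 0.99, 0.70, 0.58, 0.58 and 0.62 (SE 0.07 at each). In dry seed it was at 205, 175 and 184 CPM in abi3-6 against 115, 130 and 123 in wild type, with no overlap. SNRK2.3 was at 49.1 and 41.5 CPM in abi3-6 at 16 DAP against 8.93, 11.2 and 12.0 in wild type, at 101 and 92.8 against 20.5, 18.0 and 19.1 CPM at 18 DAP and at 103 and 116 against 66.7, 73.5 and 72.3 CPM at 20 DAP. It was at 99.3 and 94.8 CPM in abi3-6 against 116, 127 and 119 at 22 DAP, at 108, 122 and 117 against 145, 122 and 130.1 CPM at 24 DAP, and at 119, 121 and 107 against 148, 154 and 147 CPM in dry seed. SNRK2.3 was thus higher in abi3-6 at 16, 18 and 20 DAP (2.07, 2.34 and 0.63, SE 0.13, 0.12 and 0.11). It was lower at 22 DAP (log2 fold change -0.32, SE 0.11, adjusted p = 0.0132) and in dry seed (log2 fold change -0.37, SE 0.14, adjusted p = 0.0144), but with library totals alone it came out higher at both (0.26 and 0.19), and neither call held with RLE (relative log expression) factors (adjusted p = 0.134 and 0.342). At 24 DAP it had -0.19 (SE 0.14, adjusted p = 0.215). At 22 DAP the call was also lost without abi3-6 replicate 2 (-0.28, adjusted p = 0.0798) and without the filter (-0.21, adjusted p = 0.117), and in dry seed without abi3-6 replicate 3 (-0.32, adjusted p = 0.0645) and with DESeq2 (-0.14, adjusted p = 0.344).

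The difference between abi3-6 and wild type depended on the stage for each kinase in batch A (edgeR's quasi-likelihood test over 16 to 22 DAP, adjusted p = 0.00487 for SNRK2.2, 8.07e-13 for SNRK2.3 and 0.000174 for SNRK2.6), as it did for 75.1% of all genes. SNRK2.6 is a guard-cell kinase in leaves, and markers of other tissues also differed between abi3-6 and wild type, in both directions. At 16 DAP the guard-cell markers were at 29.9 to 43.5 CPM in abi3-6 and 89.7 to 105 CPM in wild type. At 18 DAP they were lower too (4.10 to 4.12 against 21.1 to 36.1 CPM). They overlapped at 20 DAP and were higher at 22 DAP (1.56 to 1.90 against 0.194 to 1.23 CPM). Seed-coat markers were lower at 16 DAP (134 to 166 against 497 to 611 CPM) and 18 DAP. Their sum was higher at 20 DAP, at 22 DAP (27.0 to 32.1 against 8.28 to 9.37 CPM) and in dry seed (34.0 to 37.0 against 9.51 to 11.2 CPM). In dry seed 1 of the 3 seed-coat genes was called higher and 1 lower, beside 77.7% of all genes called. Leaf and silique markers were higher at 16 DAP (3917.5 to 4292 against 455 to 476 CPM). In dry seed the summed level of 4 guard-cell markers (KAT1, SLAC1, MYB60 and FAMA, the first pair also counted among kinase substrates) was 2.03 to 3.73 CPM in abi3-6, with none of them at 0 in all libraries, and 0.254 to 0.449 CPM in wild type, where KAT1 and SLAC1 were at 0. Of these markers 2 were tested, both with a genotype at the floor of 3 counts, and 1 was called higher. The summed leaf and silique markers (3 genes) were at 7283 to 8389 CPM in dry abi3-6 and 159 to 171 CPM in dry wild type, and the endosperm marker EPR1 was at 1539 to 2541 CPM in dry abi3-6 and 21942 to 23180 CPM in dry wild type. Their part in the SNRK2.6 result was not tested.

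**Figure D3:**
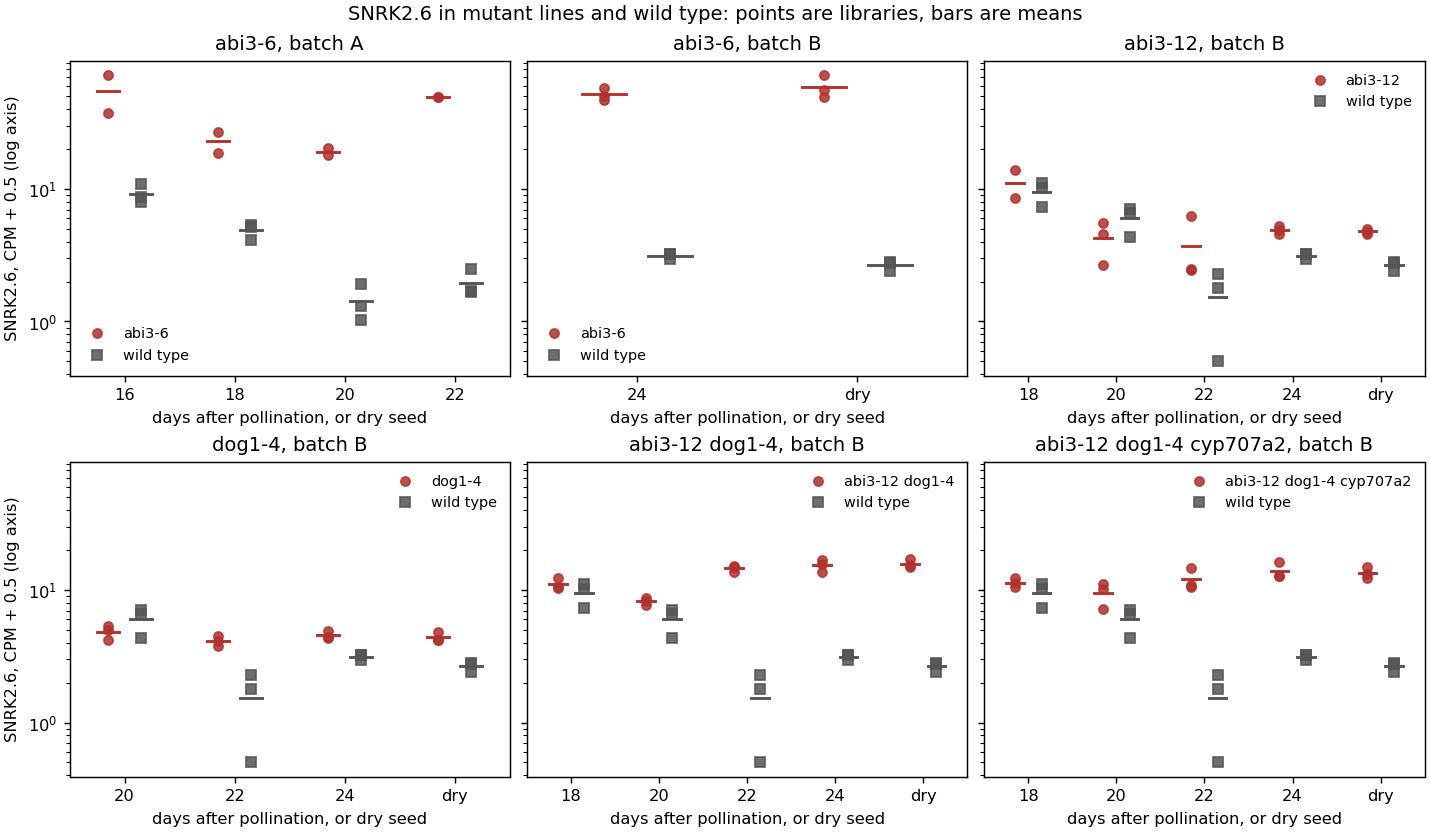
SNRK2.6 expression (CPM + 0.5, log axis) against stage in each line with a course, with points for libraries and bars for group means, circles for the line and squares for wild type of the same batch. In abi3-6 it stays between 17.4 and 71.5 CPM up to the dry seed, where wild type averages 2.18 CPM.

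The weaker allele abi3-12 had much smaller differences. SNRK2.6 was at 1.93, 1.98 and 5.74 CPM in abi3-12 at 22 DAP against 1.3, 1.79 and 0 in wild type, at 4.06, 4.39 and 4.74 against 2.71, 2.45 and 2.76 CPM at 24 DAP, and at 4.25, 4.11 and 4.52 against 1.92, 2.29 and 2.33 CPM in dry seed. The log2 fold changes at 18, 20, 22 and 24 DAP and in dry seed were 0.22, -0.43, 1.42, 0.77 and 0.97 (SE 0.24, 0.27, 0.36, 0.26 and 0.26, adjusted p 0.549, 0.215, 0.000594, 0.0209 and 0.00207). SNRK2.2 had 0.17, 0.35, 0.27, 0.11 and 0.21 (SE 0.08, 0.07, 0.07, 0.07 and 0.07, adjusted p 0.0861, 3.14e-05, 0.00102, 0.255 and 0.0114). For SNRK2.3 the values were 0.27, 0.32, -0.23, -0.08 and -0.21 (SE 0.19, 0.15, 0.14, 0.14 and 0.14, adjusted p 0.311, 0.0921, 0.218, 0.794 and 0.282). SNRK2.6 rose at 22 and 24 DAP and in dry seed, where its libraries did not overlap with wild type, SNRK2.2 rose at 20 and 22 DAP and in dry seed, and SNRK2.3 passed the test at no stage. Of all genes, 29.1%, 37.6%, 34.7%, 21.3% and 30.4% were called. The SNRK2.6 call at 22 DAP was lost without abi3-12 replicate 3 (0.60, adjusted p = 0.209) and that at 24 DAP without wild-type replicate 2 or abi3-12 replicates 2 or 3 (0.70 to 0.79, adjusted p 0.0505 to 0.113). In dry seed the SNRK2.2 call was lost without wild-type replicate 1 or abi3-12 replicate 2 (0.16 to 0.18, adjusted p 0.0660 to 0.0967). In fits to only the compared groups the 22 DAP calls of SNRK2.6 (1.46, adjusted p = 0.176) and SNRK2.2 (0.30, adjusted p = 0.0932) were lost.

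The alleles were compared directly where both were sampled. SNRK2.6 was higher in abi3-6 than in abi3-12 by 3.52 at 24 DAP (SE 0.21, adjusted p = 1.45e-24) and by 3.77 in dry seed (SE 0.19, adjusted p = 1.50e-27). SNRK2.2 had 0.47 and 0.41 (SE 0.07 and 0.07, adjusted p 4.59e-09 and 9.35e-08), and SNRK2.3 had -0.11 and -0.16 (SE 0.14 and 0.14, adjusted p 0.514 and 0.299). Between these alleles 72.9% and 75.9% of all genes were called.

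Loss of DOG1 alone went with more SNRK2.3 at 20, 22 and 24 DAP and with a modest rise of SNRK2.6 at 22 DAP and in dry seed. SNRK2.3 was at 72.3, 76.4 and 78.3 CPM in dog1-4 at 20 DAP against 34.4, 48.5 and 63.2 in wild type, at 168, 185 and 170.1 against 104, 101 and 121 CPM at 22 DAP, at 199.6, 178 and 159 against 145, 122 and 130.1 CPM at 24 DAP and at 180.1, 174 and 199 against 148, 154 and 147 CPM in dry seed. The libraries of dog1-4 lay above those of wild type at all 4 stages, though the dry-seed difference did not pass the test. SNRK2.3 rose by 0.63, 0.69 and 0.44 at 20, 22 and 24 DAP (SE 0.15, 0.14 and 0.14, adjusted p 0.00125, 0.000215 and 0.0253), and in dry seed it had 0.30 (SE 0.14, adjusted p = 0.0987). SNRK2.6 had -0.34, 1.48, 0.62 and 0.84 at 20, 22 and 24 DAP and in dry seed (SE 0.25, 0.36, 0.26 and 0.26, adjusted p 0.477, 0.000682, 0.102 and 0.00894), and SNRK2.2 had 0.21, 0.13, 0.14 and 0.11 (SE 0.07 at each, adjusted p 0.0307, 0.174, 0.170 and 0.222). In dry seed SNRK2.6 was at 3.69, 4.32 and 3.72 CPM in dog1-4 and 1.92, 2.29 and 2.33 CPM in wild type. Of all genes, 12.5%, 17.8%, 15.2% and 30.6% were called. The SNRK2.3 call at 24 DAP was lost without wild-type replicates 2 or 3 or dog1-4 replicates 1 or 2 (0.35 to 0.44, adjusted p 0.0652 to 0.138), and the SNRK2.2 call at 20 DAP without wild-type replicates 1 or 2 or dog1-4 replicate 1 (0.16 to 0.21, adjusted p 0.0799 to 0.177). In fits to only the compared groups the 20 DAP calls of SNRK2.3 (0.64, adjusted p = 0.0959) and SNRK2.2 (0.22, adjusted p = 0.190) and the 22 DAP call of SNRK2.6 (1.55, adjusted p = 0.0518) were lost, and without the filter on low counts the SNRK2.3 call at 24 DAP (0.41, adjusted p = 0.0501).

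Seeds of the double mutant abi3-12 dog1-4 had high SNRK2.6 late in maturation, above both single mutants. At 22 DAP SNRK2.6 was at 13.3, 14.8 and 14.4 CPM in abi3-12 dog1-4 against 1.3, 1.79 and 0 in wild type, at 24 DAP at 15.1, 13.1 and 16.3 against 2.71, 2.45 and 2.76 CPM, and in dry seed at 15.0, 16.5 and 14.4 against 1.92, 2.29 and 2.33 CPM. Its libraries lay above those of wild type at each of these stages. The log2 fold changes at 18, 20, 22 and 24 DAP and in dry seed were 0.17, 0.50, 3.45, 2.5 and 2.8 (SE 0.22, 0.22, 0.34, 0.22 and 0.24, adjusted p 0.582, 0.0460, 5.94e-18, 1.87e-16 and 2.08e-18). SNRK2.2 was higher at all 5 stages, by 0.32, 0.45, 0.23, 0.18 and 0.28 (SE 0.07 at each). SNRK2.3 was higher than in wild type at 18 and 20 DAP (1.46 and 0.98, SE 0.17 and 0.15) and lower at 22 DAP (log2 fold change -0.35, SE 0.14, adjusted p = 0.0235) and in dry seed (log2 fold change -0.44, SE 0.14, adjusted p = 0.00410), but with library totals alone it was higher at both (0.47 and 0.19). At 24 DAP SNRK2.3 had -0.06 (SE 0.14, adjusted p = 0.737). In dry seed it was at 109, 112 and 110.2 CPM in abi3-12 dog1-4 and 148, 154 and 147 CPM in wild type. Of all genes, 41.2%, 58.8%, 75.2%, 69.4% and 73.8% were called. The lower SNRK2.3 did not pass with RLE factors at either stage (-0.16, adjusted p = 0.303 at 22 DAP; -0.29, adjusted p = 0.0518 in dry seed), and at 22 DAP it was lost without wild-type replicate 3 or abi3-12 dog1-4 replicate 1 (-0.34 to -0.27, adjusted p 0.0584 to 0.112), with DESeq2, without the filter and in a fit to only the compared groups (adjusted p = 0.308, 0.131 and 0.172). The SNRK2.6 call at 20 DAP was lost without wild-type replicate 3 or abi3-12 dog1-4 replicates 1 or 2 (0.29 to 0.50, adjusted p 0.0783 to 0.325) and the SNRK2.2 call at 24 DAP without wild-type replicate 2 or abi3-12 dog1-4 replicate 2 (0.15, adjusted p 0.0639 to 0.0689) and in a fit to only the compared groups (0.17, adjusted p = 0.181).

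Against abi3-12 alone, SNRK2.6 in abi3-12 dog1-4 had -0.05, 0.93, 2.03, 1.73 and 1.83 at 18, 20, 22 and 24 DAP and in dry seed (SE 0.21, 0.25, 0.22, 0.22 and 0.20, adjusted p 0.971, 0.00138, 1.88e-13, 1.47e-10 and 4.28e-13). Against dog1-4 it had 0.84, 1.97, 1.88 and 1.97 at 20, 22 and 24 DAP and in dry seed (SE 0.23, 0.21, 0.23 and 0.20, adjusted p 0.00106, 2.34e-13, 2.20e-11 and 4.93e-14). The double mutant thus held more SNRK2.6 than each single mutant at 20, 22 and 24 DAP and in dry seed. SNRK2.3 against dog1-4 had 0.35, -1.04, -0.50 and -0.74 at 20, 22 and 24 DAP and in dry seed (SE 0.14 at each, adjusted p 0.0348, 1.44e-09, 0.00194 and 4.69e-06). Of all genes, 12.4%, 36.9%, 69.7%, 62.0% and 69.2% were called against abi3-12 and 54.1%, 74.1%, 62.2% and 68.6% against dog1-4. The SNRK2.3 call at 20 DAP was lost without dog1-4 replicates 1, 2 or 3 or abi3-12 dog1-4 replicate 2 (0.24 to 0.37, adjusted p 0.0510 to 0.212) and that at 24 DAP without abi3-12 dog1-4 replicate 3 (-0.35, adjusted p = 0.0553) and in a fit to only the compared groups (-0.48, adjusted p = 0.0648). With library totals alone the calls at 24 DAP (-0.10, adjusted p = 0.583) and in dry seed (-0.29, adjusted p = 0.0732) were lost. Markers of other tissues differed from wild type here too. In dry abi3-12 dog1-4 the guard-cell markers summed to 0.879 to 0.949 CPM, with KAT1 and SLAC1 at 0, and the leaf and silique markers to 2889 to 3159 CPM. Both sums lay above dry wild type, which had 0.254 to 0.449 CPM for the guard-cell markers. The guard-cell sums rest on few counts. Of these markers 2 were tested, both with a genotype at the floor, and 1 was called higher. The seed-coat markers were higher in sum, at 24.6 to 25.9 CPM against 9.51 to 11.2 CPM in dry wild type. Of these 3 genes 1 was called higher and 1 lower, beside 73.8% of all genes called. The endosperm marker EPR1 was lower, at 5098 to 6747 CPM against 21942 to 23180 CPM in dry wild type. Their part in the result was not tested.

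Adding cyp707a2, a mutation in ABA breakdown, to the double mutant went with more SNRK2.3 late in maturation but with little difference in SNRK2.6. SNRK2.3 was at 186, 118 and 163 CPM in abi3-12 dog1-4 cyp707a2 at 22 DAP against 82.6, 85.9 and 85.3 in abi3-12 dog1-4, at 198, 164 and 163 against 159, 125 and 101 CPM at 24 DAP and at 161, 166 and 182 against 109, 112 and 110.2 CPM in dry seed. The line with cyp707a2 lay above the double mutant in every library of each stage. It was higher by 0.88, 0.47 and 0.62 (SE 0.14, 0.14 and 0.14, adjusted p 1.57e-07, 0.00421 and 9.97e-05), and had -0.12 and -0.02 at 18 and 20 DAP (adjusted p 0.770 and 0.998). SNRK2.6 had 0.05, 0.21, -0.29, -0.15 and -0.24 at 18, 20, 22 and 24 DAP and in dry seed (SE 0.19, 0.20, 0.18, 0.18 and 0.17), with no call, and SNRK2.2 was called at 22 DAP (log2 fold change 0.20, SE 0.07, adjusted p = 0.00642). Of all genes, 6.46%, 5.83%, 67.9%, 53.7% and 62.4% were called between these lines. The SNRK2.3 call at 24 DAP was lost without abi3-12 dog1-4 replicate 3 (0.32, adjusted p = 0.10). With library totals alone the SNRK2.3 calls at 24 DAP (0.23, adjusted p = 0.192) and in dry seed (0.29, adjusted p = 0.0821) were lost, and in a fit to only the compared groups that at 24 DAP (0.48, adjusted p = 0.0721). That of SNRK2.2 was lost without abi3-12 dog1-4 replicate 1 or abi3-12 dog1-4 cyp707a2 replicates 1 or 3 (0.14 to 0.16, adjusted p 0.0559 to 0.0790), with RLE factors, with DESeq2 and in a fit to only the compared groups (adjusted p = 0.349, 0.322 and 0.164), and turned round with library totals alone (-0.22).

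Against wild type, abi3-12 dog1-4 cyp707a2 had higher SNRK2.3 at 18, 20, 22 and 24 DAP (1.34, 0.96, 0.53 and 0.41, SE 0.17, 0.15, 0.14 and 0.14) and 0.18 in dry seed (SE 0.14, adjusted p = 0.299). SNRK2.6 had 0.21, 0.71, 3.15, 2.35 and 2.57 at the 5 stages (SE 0.22, 0.23, 0.34, 0.22 and 0.24, adjusted p 0.513, 0.00610, 1.01e-14, 7.42e-15 and 1.35e-15) and SNRK2.2 0.40, 0.39, 0.43, 0.26 and 0.34 (SE 0.07 at each, largest adjusted p 0.000843). Dry seed held SNRK2.6 at 12.8, 14.4 and 11.9 CPM in abi3-12 dog1-4 cyp707a2 and 1.92, 2.29 and 2.33 CPM in wild type, with no overlap. Of all genes, 33.9%, 51.7%, 45.1%, 43.9% and 48.2% were called. The SNRK2.3 call at 24 DAP was lost without wild-type replicate 2 or abi3-12 dog1-4 cyp707a2 replicate 1 (0.31 to 0.35, adjusted p 0.0745 to 0.108) and the SNRK2.6 call at 20 DAP without wild-type replicate 3 (0.50, adjusted p = 0.0921).

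Whether a line's difference from wild type depended on the stage was tested in the same fit for the 4 lines with a course in batch B. SNRK2.6 depended on stage in abi3-12 (adjusted p = 0.00260), dog1-4 (0.0138), abi3-12 dog1-4 (1.21e-14) and abi3-12 dog1-4 cyp707a2 (4.39e-11), and SNRK2.3 in abi3-12 dog1-4 (2.89e-13) and abi3-12 dog1-4 cyp707a2 (8.21e-05). SNRK2.3 had adjusted p = 0.0978 in abi3-12 and 0.593 in dog1-4, and SNRK2.2 0.312, 0.986, 0.0840 and 0.579 in the 4 lines in the same order. Of all genes, 23%, 4.95%, 65.4% and 32.8% depended on stage. The dog1-4 result for SNRK2.6 was lost without 20 DAP wild-type replicate 1 or 2 (adjusted p 0.0532 and 0.0641).

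The ABA-deficient line aba2-1 and its combinations were sampled as dry seed only. In aba2-1 SNRK2.6 was at 1.67, 1.89 and 2.04 CPM against 1.92, 2.29 and 2.33 in wild type (log2 fold change -0.23, SE 0.31, adjusted p = 0.710). SNRK2.2 had 0.11 (SE 0.07, adjusted p = 0.280) and SNRK2.3 -0.32 (SE 0.14, adjusted p = 0.120), with SNRK2.3 at 114, 121 and 125 CPM in aba2-1 and 148, 154 and 147 CPM in wild type. L2-1 gave -0.10, -0.24 and 0.35 for SNRK2.2, SNRK2.3 and SNRK2.6 (SE 0.07, 0.14 and 0.28), with no call. Over all genes 15.8% were called in aba2-1 and 1.01% in L2-1.

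The combinations with aba2-1 had higher SNRK2.2 and SNRK2.6 than wild type. SNRK2.6 was at 19.3, 22.2 and 22.0 CPM in abi3-12 dog1-4 aba2-1, 8.75, 7.26 and 9.17 in abi3-12 aba2-1 and 5.11, 4.64 and 4.24 in dog1-4 aba2-1, against 1.92, 2.29 and 2.33 in wild type. These were log2 fold changes of 3.27, 1.94 and 1.10 (SE 0.24, 0.25 and 0.26, adjusted p 1.02e-21, 6.17e-11 and 0.000206). For SNRK2.2 they were 0.38, 0.27 and 0.35 (adjusted p 3.95e-07, 0.000262 and 8.32e-06). SNRK2.3 had -0.63, -0.43 and -0.20 (SE 0.14, 0.14 and 0.14, adjusted p 5.66e-05, 0.00671 and 0.255), and with library totals alone -0.08, 0.04 and -0.01. Of all genes, 75.3%, 61.5% and 48.4% were called in these lines.

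Set against the same line without aba2-1, SNRK2.6 was higher in abi3-12 aba2-1 and in abi3-12 dog1-4 aba2-1. SNRK2.6 had 0.47 (SE 0.16, adjusted p = 0.0456) in abi3-12 dog1-4 aba2-1 against abi3-12 dog1-4, 0.97 (SE 0.21, adjusted p = 5.56e-05) in abi3-12 aba2-1 against abi3-12 and 0.26 (SE 0.22, adjusted p = 0.466) in dog1-4 aba2-1 against dog1-4. For SNRK2.3 these were -0.19 (SE 0.14, adjusted p = 0.409), -0.22 (SE 0.14, adjusted p = 0.204) and -0.50 (SE 0.14, adjusted p = 0.00805). SNRK2.2 gave 0.11 (SE 0.07, adjusted p = 0.303), 0.06 (SE 0.07, adjusted p = 0.444) and 0.24 (SE 0.07, adjusted p = 0.00600). Of all genes, 13.3%, 49.4% and 18.2% were called. The first SNRK2.6 call was lost when any of its 6 libraries was left out (0.43 to 0.53, adjusted p 0.0574 to 0.155), with library totals alone and without the filter (adjusted p = 0.120 and 0.0541). In dog1-4 aba2-1 the SNRK2.3 call was lost without dog1-4 replicate 3 or dog1-4 aba2-1 replicate 2 (-0.44 to -0.42, adjusted p 0.0585 to 0.0765) and the SNRK2.2 call without dog1-4 replicate 3 (0.21, adjusted p = 0.0622).

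Within the ABA-deficient background, abi3-12 and dog1-4 each went with more SNRK2.6. Against aba2-1, SNRK2.6 was higher by 2.17 (SE 0.26, adjusted p = 1.26e-11) in abi3-12 aba2-1 and by 1.33 (SE 0.27, adjusted p = 5.54e-05) in dog1-4 aba2-1, and abi3-12 dog1-4 aba2-1 exceeded these lines by 1.33 (SE 0.18, adjusted p = 2.54e-09) and 2.17 (SE 0.19, adjusted p = 8.27e-16). SNRK2.2 against aba2-1 had 0.16 (SE 0.07, adjusted p = 0.0340) in abi3-12 aba2-1, a call lost without aba2-1 replicates 1 or 2 or abi3-12 aba2-1 replicates 1 or 3 (0.14 to 0.16, adjusted p 0.0660 to 0.109), and 0.24 (SE 0.07, adjusted p = 0.00332) in dog1-4 aba2-1. SNRK2.3 had -0.44 (SE 0.14, adjusted p = 0.00569) in abi3-12 dog1-4 aba2-1 against dog1-4 aba2-1, lost with RLE factors and with library totals alone (adjusted p = 0.0529 and 0.695), and no call in the other comparisons of this kind. Of all genes, 51.7% and 32.7% were called against aba2-1, and 51.8% and 63.3% between abi3-12 dog1-4 aba2-1 and the lines with 1 mutation fewer. L2-1, with the Cvi DOG1, was also set against dog1-4, and had lower SNRK2.2, -0.21 (SE 0.07, adjusted p = 0.00919), and SNRK2.3, -0.54 (SE 0.14, adjusted p = 0.00136), and -0.49 (SE 0.25, adjusted p = 0.113) for SNRK2.6, beside 39.8% of genes called. The SNRK2.2 call was lost without L2-1 replicate 2 (-0.18, adjusted p = 0.0532).

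The dry-seed lines with and without abi3-12, dog1-4 and aba2-1 allow a test of whether the effects of 2 mutations add on the log2 scale. For abi3-12 with dog1-4, SNRK2.6 was higher than the sum of both effects by 1.00 (SE 0.33, adjusted p = 0.0126) and SNRK2.3 was lower than the sum, with a term of -0.53 (SE 0.20, adjusted p = 0.0290). For abi3-12 with aba2-1, SNRK2.6 was higher than the sum by 1.19 (SE 0.37, adjusted p = 0.0185). The other 9 of 12 tests gave no call, including all of dog1-4 with aba2-1 and of the 3-way term. Of all genes, 37.3%, 14.2%, 1.01% and 14.8% were called for the 4 terms. The SNRK2.3 term was lost with RLE factors (-0.40, adjusted p = 0.105), with DESeq2 (-0.40, adjusted p = 0.0815), with library totals alone (-0.23, adjusted p = 0.428) and without dry wild-type replicate 3 or dog1-4 replicate 3 (-0.52 to -0.47, adjusted p 0.0522 to 0.0759). The SNRK2.6 term of abi3-12 with aba2-1 was lost without wild-type replicates 2 or 3 (1.15 to 1.16, adjusted p 0.0504 to 0.0531).

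In dry seed the 11 genotypes fell in a different order for each kinase. SNRK2.6 ran, in mean CPM with the SD over 3 libraries, abi3-6 58.6 ± 11.6, abi3-12 dog1-4 aba2-1 21.2 ± 1.58, abi3-12 dog1-4 15.3 ± 1.09, abi3-12 dog1-4 cyp707a2 13.0 ± 1.25, abi3-12 aba2-1 8.39 ± 1.00, dog1-4 aba2-1 4.66 ± 0.434, abi3-12 4.29 ± 0.208, dog1-4 3.91 ± 0.359, L2-1 2.79 ± 0.419, wild type 2.18 ± 0.226 and aba2-1 1.87 ± 0.184. Of the 10 pairs of neighbours in this order 3 overlapped in their library values (dog1-4 aba2-1 with abi3-12, abi3-12 with dog1-4 and wild type with aba2-1). SNRK2.3 ran dog1-4 184 ± 12.6, abi3-12 dog1-4 cyp707a2 169.9 ± 11, wild type 149.7 ± 3.56, dog1-4 aba2-1 131 ± 12.6, abi3-12 129 ± 0.978, L2-1 127 ± 4.48, aba2-1 120.01 ± 5.56, abi3-6 116 ± 7.40, abi3-12 aba2-1 111 ± 9.05, abi3-12 dog1-4 110.3 ± 1.52 and abi3-12 dog1-4 aba2-1 96.4 ± 4.79. Here 7 of 10 neighbours overlapped, and those that did not were abi3-12 dog1-4 cyp707a2 over wild type, wild type over dog1-4 aba2-1 and abi3-12 dog1-4 over abi3-12 dog1-4 aba2-1. SNRK2.2 ran abi3-6 188 ± 14.9, abi3-12 dog1-4 aba2-1 160.2 ± 9.50, dog1-4 aba2-1 156 ± 6.42, abi3-12 dog1-4 cyp707a2 156 ± 1.80, abi3-12 dog1-4 149 ± 3.71, abi3-12 aba2-1 148 ± 2.54, abi3-12 142 ± 5.42, aba2-1 132 ± 5.33, dog1-4 132 ± 5.65, wild type 123 ± 7.34 and L2-1 115 ± 5.31, with 8 of 10 neighbours overlapping. How often such neighbours overlap for other genes was not counted, so these overlaps only describe the 3 kinases. As a ratio of the highest to the lowest mean the span was widest for SNRK2.6 and narrowest for SNRK2.2. The summed leaf and silique markers in dry seed had medians of 8205 CPM in abi3-6, 4567 CPM in abi3-12 dog1-4 aba2-1, 2895 CPM in abi3-12 dog1-4, 626 CPM in abi3-12 dog1-4 cyp707a2, 1066 CPM in abi3-12 aba2-1, 812 CPM in dog1-4 aba2-1, 324 CPM in abi3-12, 472 CPM in dog1-4, 142 CPM in L2-1, 164 CPM in wild type and 295 CPM in aba2-1. Their part in this order was not tested.

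**Figure D4:**
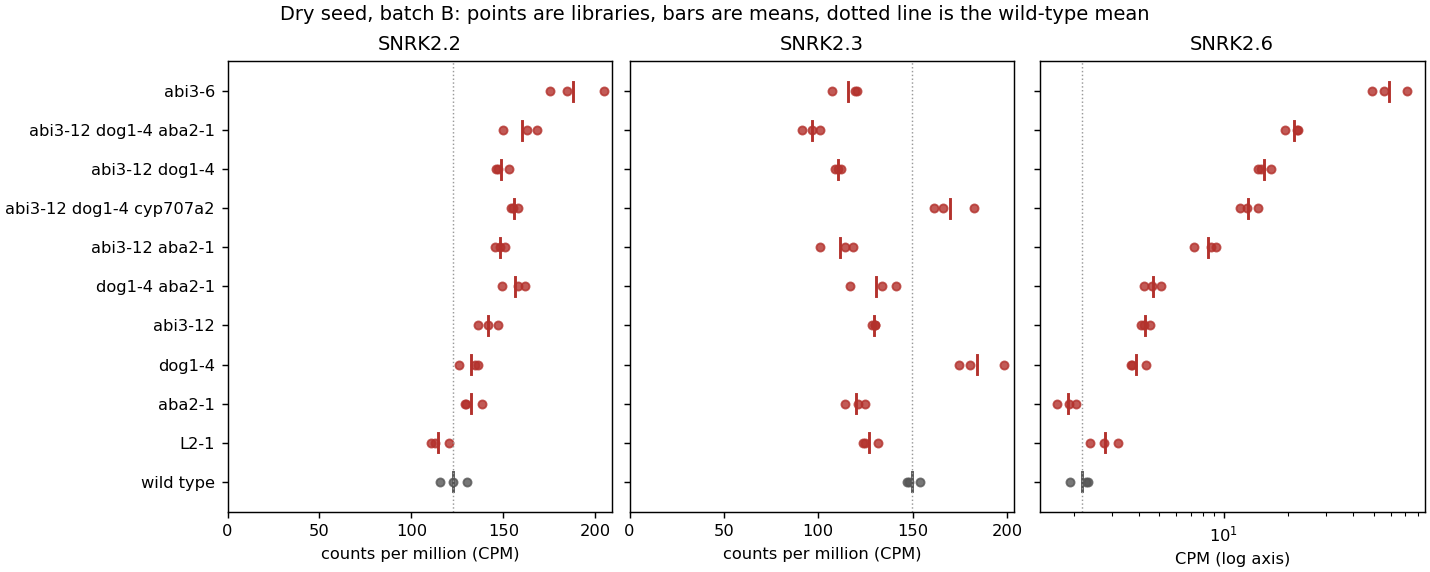
Expression of the 3 kinases in dry seed of batch B (CPM, with a log axis for SNRK2.6), with 1 point per library, a bar for the mean of 3 and a dotted line at the wild-type mean. SNRK2.6 spans the widest range, with abi3-6 at 58.6 CPM and wild type at 2.18 CPM.

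Ratios between members do not depend on the scaling of a library, and were compared between each line and wild type within stages by an exact permutation test, two-sided, over 18 tests. The log2 ratio of SNRK2.3 to SNRK2.2 was higher in dog1-4 by 0.38, in all 4 stages (exact permutation p = 1.25e-05, the smallest possible, adjusted p = 0.000225). As a mean over stages it was higher in abi3-12 dog1-4 cyp707a2 (0.32, adjusted p = 0.00818, exact permutation test), with 4 stages higher and 1 lower. In abi3-12 it was lower (-0.20, adjusted p = 0.0239), with 2 stages higher and 3 lower. In abi3-12 dog1-4 the mean difference of 0.03 (adjusted p = 0.845) hid opposite shifts, with 2 stages higher and 3 lower (SD 0.794 over stages). There the ratio averaged -0.72 against -1.85 in wild type at 18 DAP and -0.43 against 0.29 in dry seed. In abi3-6 the difference was 0.42, higher at 2 stages and lower at 2 (adjusted p = 0.137). SNRK2.6 gained on SNRK2.2 in abi3-6 (2.82), abi3-12 dog1-4 (1.75), abi3-12 dog1-4 cyp707a2 (1.59) and dog1-4 (0.70), with adjusted p = 0.000593, 0.000593, 0.000593 and 0.0224 by the exact permutation test, and had 0.42 in abi3-12 (adjusted p = 0.184). Of the 18 tests 13 passed. When replicate 1, 2 or 3 was left out of all groups, the dog1-4 ratio of SNRK2.3 to SNRK2.2 and the ratios of SNRK2.6 to SNRK2.2 in abi3-12 dog1-4 and abi3-12 dog1-4 cyp707a2 still passed each time. Without replicate 1, abi3-6 kept a single library per stage, with only 81 arrangements for the test. Its SNRK2.6 to SNRK2.2 ratio was then 2.75 above wild type, and higher at all 4 stages. It did not pass there, though its exact p was the smallest those arrangements allow. The SNRK2.6 to SNRK2.2 ratio of dog1-4 missed the threshold without replicate 1, 2 or 3 (adjusted p = 0.0833, 0.0769 and 0.200), with a value of 0.34 without replicate 3 (exact permutation tests). The SNRK2.3 to SNRK2.2 calls of abi3-12 (adjusted p 0.0769 to 0.151) and abi3-12 dog1-4 cyp707a2 (0.0525 to 0.0833) were lost in each case by the same exact test. Per exon length, dry abi3-6 seed held 51.8% ± 3.53 SNRK2.2, 33.9% ± 1.07 SNRK2.3 and 14.3% ± 2.86 SNRK2.6, and dry dog1-4 39.9% ± 2.55, 59.1% ± 2.62 and 1.04% ± 0.118 (SD, n = 3 each).

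The other 7 SnRK2 kinases, of subclasses I and II, which are not or only weakly activated by ABA, give a background for the 3. In dry abi3-6 seed SNRK2.8 had 25.8 ± 3.52 CPM against 0.593 ± 0.196 CPM in wild type, SNRK2.1 80.8 ± 4.53 CPM against 16.6 ± 0.338 CPM and SNRK2.5 17.2 ± 3.31 CPM against 0.924 ± 0.558 CPM (SD, n = 3 each), all higher. SNRK2.7 was at 18.7 ± 5.0 CPM in abi3-6 and at 0 in all wild-type libraries, at least 70.4-fold higher against a floor of 3 counts per library. SNRK2.10 and SNRK2.4 were lower, at 44.1 ± 3.16 CPM against 164 ± 29.6 CPM and 31.7 ± 1.71 CPM against 59.1 ± 3.40 CPM, and SNRK2.9 had 1.35 ± 0.277 CPM against 1.26 ± 0.228 CPM with no call. Of the 7, 4 were higher and 2 lower in this line, where 77.7% of all genes were called. Over the 10 lines in dry seed, in which 1.01% to 77.7% of all genes were called, SNRK2.8 was higher than wild type in 9 and lower in 0, SNRK2.1 higher in 8 and lower in 1, SNRK2.5 higher in 5, SNRK2.4 lower in 9 and SNRK2.10 lower in 6. SNRK2.9 was higher in 2 and SNRK2.7, at the floor in wild type, in 2. With library totals alone SNRK2.4 was lower in 8 and SNRK2.10 in 4. In dog1-4 SNRK2.8 had 9.69 ± 2.28 CPM against 0.593 ± 0.196 CPM in wild type and SNRK2.1 26.5 ± 2.28 CPM against 16.6 ± 0.338 CPM (n = 3 each). Along the wild-type course SNRK2.10 was higher in dry seed than at 18 DAP in both batches (183 ± 15.2 CPM against 133 ± 12.5 CPM in batch A and 164 ± 29.6 CPM against 82.8 ± 7.45 CPM in batch B), SNRK2.5 was lower (0.906 ± 0.793 CPM against 3.06 ± 0.608 CPM and 0.924 ± 0.558 CPM against 6.13 ± 0.368 CPM), and SNRK2.7 was at 0 in dry seed against 4.12 ± 0.301 CPM and 17.8 ± 2.63 CPM at 18 DAP.

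**Figure D5:**
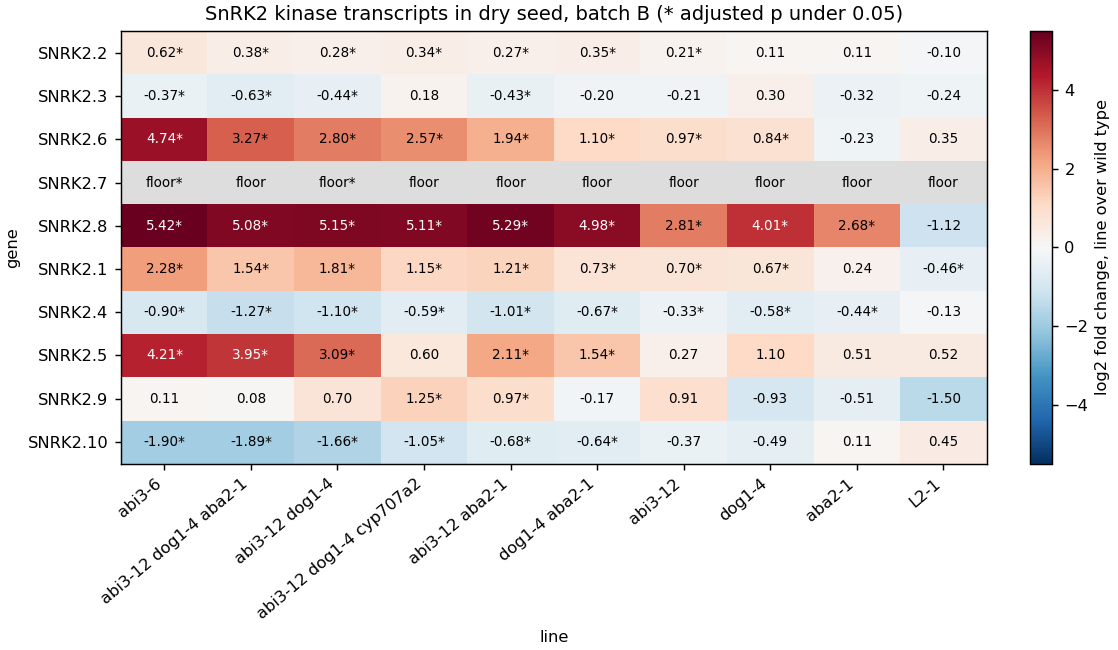
Log2 fold change of each SnRK2 kinase between a line and wild type in dry seed of batch B, as a colour scale with the value in each cell and a star at an adjusted p under 0.05. Cells marked floor have all libraries of a genotype at 3 counts or fewer. SNRK2.6 and SNRK2.8 are higher in most lines, and SNRK2.4 and SNRK2.10 lower.

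The genes that act around these kinases were counted by role, in lists from textbook knowledge. Between dry seed and 18 DAP of wild type 63.8% of all genes were called in batch A and 66.6% in batch B. Among Raf-like kinases, which activate SnRK2s, dry wild-type seed against 18 DAP had 6 higher and 3 lower of 11 tested in batch A and 5 higher and 5 lower of 11 tested in batch B (median log2 fold change 0.52 and 0.38). RAF12 had 101 ± 2.82 CPM against 34.0 ± 3.87 CPM in batch A and 114 ± 2.15 CPM against 21.9 ± 2.42 CPM in batch B, higher in dry seed. Of the PYR/PYL receptors 4 higher and 5 lower of 13 tested and 2 higher and 5 lower of 13 tested were called (median -0.19 and -0.28). PYL3 was at 0.185 ± 0.0693 CPM in dry seed against 10.8 ± 4.09 CPM in batch A, at least 43.9-fold lower by the floor, and PYL6 was at 0 against 20.5 ± 2.56 CPM in batch B. The clade A PP2Cs, inhibitors of the kinases, had 1 higher and 7 lower of 9 tested and 1 higher and 6 lower of 9 tested (median -0.71 and -0.53), but with library totals alone 3 higher and 3 lower and 3 higher and 2 lower. HAI1 was lower in dry seed at 11 ± 1.06 CPM against 117 ± 24.4 CPM and 13.8 ± 0.890 CPM against 185 ± 5.21 CPM. Of the substrates 1 higher and 5 lower of 9 tested and 1 higher and 7 lower of 9 tested were called (median -1.17 and -1.76), and RBOHF, an oxidase that SNRK2.6 acts on in guard cells, was at 0 in dry seed against 40.2 ± 7.36 CPM and 106 ± 10.2 CPM at 18 DAP. The median over all genes tested was 0.00 in both batches. Genes at the floor entered the medians at their bound. With library totals alone the splits were 8 higher and 1 lower and 7 higher and 2 lower for the Raf-like kinases, 7 higher and 5 lower and 6 higher and 4 lower for the receptors, and 4 higher and 5 lower and 2 higher and 5 lower for the substrates.

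In dry abi3-6 against wild type the Raf-like kinases had 5 higher and 4 lower of 11 tested, the receptors 4 higher and 6 lower of 13 tested, the PP2Cs 3 higher and 3 lower of 9 tested and the substrates 4 higher and 3 lower of 9 tested (medians 0.32, -0.62, 0.11 and 0.10, against 0.17 over all genes). Of all genes 77.7% were called. RAF8 was at 3.43 ± 0.489 CPM against 80.3 ± 17.1 CPM in wild type and the phosphatase AHG1, which acts in seeds, at 49.6 ± 2.86 CPM against 634 ± 28.2 CPM, both lower in abi3-6. The receptor PYL12 was at least 134-fold lower, with 0.0270 ± 0.0469 CPM against 29.4 ± 5.19 CPM. The transcription factor ABF3 was at 24.7 ± 11.5 CPM in abi3-6 and at 0 in wild type, at least 92.9-fold higher. In dry dog1-4 the same lists had 3 higher and 0 lower of 11 tested, 6 higher and 3 lower of 13 tested, 2 higher and 7 lower of 9 tested and 3 higher and 2 lower of 9 tested (medians 0.18, 0.57, -0.62 and -0.06, against 0.00 over all genes). Here 30.6% of all genes were called. RAF6 was at 14.6 ± 1.09 CPM against 2.72 ± 0.768 CPM, PYL13 at 16.0 ± 1.12 CPM against 3.51 ± 0.128 CPM and ABF2 at 19.6 ± 1.97 CPM against 5.70 ± 0.266 CPM (higher), and HAI1 at 2.00 ± 0.112 CPM against 13.8 ± 0.890 CPM (lower). In dry abi3-12 dog1-4 they had 7 higher and 2 lower of 11 tested, 5 higher and 5 lower of 13 tested, 2 higher and 6 lower of 9 tested and 5 higher and 3 lower of 9 tested (medians 0.40, 0.26, -0.62 and 0.76, against 0.13), and the genes with the largest called changes, RAF8, PYL12, AHG1 and ABF3, were those named for abi3-6. Here 73.8% of all genes were called. With library totals alone the 4 lists had 7 higher and 2 lower, 5 higher and 4 lower, 6 higher and 1 lower and 5 higher and 3 lower in abi3-6, 6 higher and 0 lower, 6 higher and 2 lower, 2 higher and 6 lower and 3 higher and 2 lower in dog1-4, and 10 higher and 1 lower, 6 higher and 4 lower, 4 higher and 4 lower and 6 higher and 3 lower in abi3-12 dog1-4.

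In dry seed of the other 7 lines the clade A PP2Cs higher and lower than wild type, of 9 tested, numbered 2 and 5 in abi3-12 dog1-4 aba2-1, 2 and 7 in abi3-12 dog1-4 cyp707a2, 2 and 6 in abi3-12 aba2-1, 1 and 7 in dog1-4 aba2-1, 3 and 3 in abi3-12, 0 and 1 in aba2-1 and 0 and 0 in L2-1. With library totals alone they numbered 4 and 4 in abi3-12 dog1-4 aba2-1, 2 and 6 in abi3-12 dog1-4 cyp707a2, 3 and 2 in abi3-12 aba2-1, 1 and 7 in dog1-4 aba2-1, 3 and 2 in abi3-12, 0 and 1 in aba2-1 and 0 and 0 in L2-1. Of all genes, 75.3%, 48.2%, 61.5%, 48.4%, 30.4%, 15.8% and 1.01% were called in these lines in the same order. In abi3-12 dog1-4 aba2-1 the largest called change of a PP2C was that of AHG1 (-2.91 on the log2 scale), in dog1-4 aba2-1 that of HAI1 (-2.44) and in abi3-12 that of HAI3 (0.99). The Raf-like kinases had 0 to 6 higher and 0 to 4 lower (0 to 8 and 0 to 1 with library totals alone), the receptors 0 to 6 higher and 0 to 6 lower (0 to 7 and 0 to 6 with library totals alone) and the substrates 0 to 6 higher and 0 to 3 lower (0 to 6 and 0 to 3 with library totals alone) in these lines. With genes at the floor left at their fitted values, the substrates' median in dog1-4 was 0.39 in place of -0.06, and the receptors' median in abi3-6 -0.09 in place of -0.62.

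The genes whose group means ran most like each kinase over the 31 groups of batch B, among 13240 genes with a mean of at least 5 CPM, are given with Pearson's r in batch B and then over the 12 groups of batch A. Groups share libraries' stage and genotype, so these values are descriptions. They were CAT2 (r = 0.97 and 0.96), ATRBP45C (r = 0.97 and 0.97) and ABCF1 (r = 0.96 and 0.93) for SNRK2.2. For SNRK2.3 they were AT4G27450 (r = 0.96 and 0.55), CBSX3 (r = 0.96 and 0.97) and AT1G68240 (r = 0.96 and 0.95), of which AT4G27450 was far less alike in batch A. For SNRK2.6 they were AT1G50630 (r = 0.95 and 0.95), AT2G29670 (r = 0.93 and 0.91) and ADG1 (r = 0.93 and 0.96). Between the members r was 0.76 in batch B and 0.89 in batch A for SNRK2.2 and SNRK2.3, 0.32 and 0.12 for SNRK2.2 and SNRK2.6, and -0.13 and -0.26 for SNRK2.3 and SNRK2.6.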

How the data were processed

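Messenger RNA of 123 seed libraries was read from 1 table of raw counts per gene, as deposited by the authors, with no normalization. HISAT2 2.1.0, StringTie 1.3.2, SAMtools and Cufflinks and the TAIR10 build are named, without roles, in the submitters' processing notes, and the annotation and the strand setting of counting are not given in the sources used here. The labels' protocols describe strand-specific libraries made from poly(A) RNA with random hexamers and without molecular identifiers, so counting intervals and floors cover counting error only. Libraries were grouped by genotype, stage and experimental round from the labels.

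Counts were fitted with edgeR 4.0.16 (R 4.3.3, limma 3.58.1) as quasi-likelihood models with 1 coefficient per group, TMM factors and filterByExpr at a minimum count of 10, in separate fits for batch A (31 libraries, 20414 genes), batch B (92 libraries, 20912 genes) and wild type of both batches (17634 genes). P-values were adjusted by Benjamini-Hochberg over all genes of a contrast and called under 0.05. A gene at 3 counts or fewer in all libraries of a group was given a bound in place of a fold change. Ratios between the kinases (0.5 counts added) were tested by exact permutation. The fitting steps were tested on simulated counts.

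The labels speak of biological replicates and of pools of siliques, but do not settle which libraries come from separate plants, so p-values measure the spread between libraries, part of which may be technical. The kinases, the gene lists and the markers were chosen with earlier results of these data known. The other genes named are the other SnRK2 kinases, the mutated loci, the gene with the largest called change of a list in a comparison among genes with at least 5 CPM in a group, and, per kinase, the 3 genes with the highest Pearson's r over batch B groups among genes with a mean of at least 5 CPM. Symbols, gene models and sequences came from RefSeq's annotation of TAIR10.1. The alternatives were RLE factors, library totals, no filter on low counts, DESeq2 1.42.0, fits to only the compared groups, the replicate number as a block, another pseudocount and leaving out each library. Replicate numbers did not pair the libraries.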

Additional observations from a re-analysis of the deposited data

Results flagged for a closer look

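The difference between abi3-6 and wild type changed with the stage over 16 to 22 DAP of batch A for all 3 kinases, by edgeR's quasi-likelihood test of equal differences at all stages (adjusted p = 0.00487 for SNRK2.2, 8.07e-13 for SNRK2.3 and 0.000174 for SNRK2.6). In batch B the difference of SNRK2.6 between a line and wild type changed with the stage in abi3-12 dog1-4 (adjusted p = 1.21e-14), abi3-12 dog1-4 cyp707a2 (4.39e-11), abi3-12 (0.0026) and dog1-4 (0.0138). That of SNRK2.3 did so in abi3-12 dog1-4 (adjusted p = 2.89e-13) and abi3-12 dog1-4 cyp707a2 (8.21e-05).

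In dry seed the effects of 2 mutations did not add on the log2 scale in 3 tests of the interaction. SNRK2.6 was 0.997 above the sum for abi3-12 with dog1-4 and 1.19 above it for abi3-12 with aba2-1, and SNRK2.3 had -0.53 for abi3-12 with dog1-4. Of all genes, 37.3% were called for abi3-12 with dog1-4 and 14.2% for abi3-12 with aba2-1. The SNRK2.3 term was lost with RLE factors, with DESeq2 and with library totals alone. That of SNRK2.6 for abi3-12 with aba2-1 was lost without wild-type replicates 2 or 3. What lies behind these differences was not tested. Most groups hold 3 libraries, too few for a check of single libraries within a group.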

How the results depend on the processing

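Of the members' calls, 22 of 39 at wild-type steps, 63 of 90 between lines and wild type and 37 of 72 between lines became 20 to 22, 59 to 63 and 34 to 37 when 1 library was left out. Over all genes, 0.0245% to 66.6% were called in single stage comparisons of wild type. Pooled over the comparisons of lines with wild type it was 47.4%, and in single comparisons between lines 5.83% to 75.9%. The members' counts are therefore no result about the members as such. With RLE factors the members' calls numbered 24, 60 and 43, with library totals alone 25, 73 and 49 and without the filter 22, 61 and 36. With DESeq2 they numbered 24, 63 and 45, and in fits to only the compared groups 21, 61 and 40. The 3 interaction calls ran from 1 (without dry wild-type replicate 3) to 3 with 1 library left out, and the 9 calls of stage dependence ran from 8 to 11. The 13 ratio calls numbered 16 without the 20 DAP libraries and 3 to 5 without 1 replicate number, where the 3 wild-type tests among them could not pass, since the smallest exact permutation p they allow is then 0.0556. With replicate 1 or 2 left out, abi3-6 kept a single library per stage, so its tests had only 81 arrangements.

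Library totals alone turned 12 directions. SNRK2.3 against wild type was then higher in abi3-6 (0.26 at 22 DAP, 0.32 at 24 DAP and 0.19 dry), abi3-12 dog1-4 (0.47 at 22 DAP, 0.44 at 24 DAP and 0.19 dry) and abi3-12 aba2-1 (0.043 dry). Against abi3-12 at 22 DAP, abi3-12 dog1-4 gave 0.43 for SNRK2.2 and 0.35 for SNRK2.3. SNRK2.2 in abi3-12 dog1-4 cyp707a2 against abi3-12 dog1-4 gave -0.22 at 22 DAP and -0.27 dry, and SNRK2.3 in abi3-12 aba2-1 against aba2-1 gave 0.34. SNRK2.3 had 12 higher and 6 lower calls against wild type, 12 and 2 with RLE factors and 20 and 0 with library totals. The all-gene median log2 fold change shifted by -0.128 to 0.245 under RLE factors and by -0.416 to 1.26 under library totals (77 comparisons), by over 0.1 in 22 and 64 of them. Counts of called genes moved by over 1.5 times in 11 of 77 comparisons with library totals (0.741 to 3.87 times the TMM count), 0 with RLE factors, 1 without the filter, 5 of 71 with DESeq2 and 11 of 67 in fits to only the compared groups. The share of higher calls moved by over 10 points in 68 comparisons with library totals, by up to 48.8.

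Libraries with the same replicate number did not deviate together (r = -0.162 to 0.231, and every pair over 0.1 in 1 of 36 comparisons). With the replicate number as a block, the replicate block left 22, 63 and 37 calls, and it ended the call of SNRK2.6 in wild type of batch B against batch A at 24 DAP (1.44, adjusted p = 0.0546) and changed no other call of a member. At under 3 CPM, SNRK2.6 in wild type rests on few counts per library, and small changes there were not detectable at this depth.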
